A study of Homo sapiens with 6 samples.

Results

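Zinc, copper and iron enter, leave and are stored in a cell through a small set of proteins, and the mRNAs of 34 of them were followed here in Ewing sarcoma cells with and without the lysyl oxidase propeptide. They were 10 genes of the SLC30 family of zinc exporters (SLC30A1 to SLC30A10) and 14 of the SLC39 family of zinc importers (SLC39A1 to SLC39A14). The others were the zinc sensor MTF1, 4 copper transporters and 5 genes of iron transport and storage. Members were found by matching the accession of each array probe to its RefSeq gene, and were 34 of the 20503 genes with a named probe. Together they had 48 probes, of which 45 were bright enough to be tested.

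SLC30 proteins lower cytosolic zinc by moving it out of the cell or into organelles, while SLC39 proteins bring zinc into the cytosol. When free zinc is high, the transcription factor MTF1 binds short DNA motifs called metal response elements and turns on the metallothioneins, which bind zinc and copper, and the exporter SLC30A1. Copper is taken up by SLC31A1 and handed to the pumps ATP7A and ATP7B, and ATP7A supplies copper to secreted enzymes such as lysyl oxidase itself. Iron bound to transferrin enters through the receptor TFRC, crosses membranes by SLC11A2, is stored in ferritin (FTH1 and FTL) and leaves through SLC40A1.

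A673 is a cell line from a Ewing sarcoma, a bone and soft tissue tumor driven by the EWS/FLI1 fusion. Both groups were A673/TR cells, which carry the tetracycline repressor: 3 samples of A673/TR/empty, with an empty lentiviral vector, and 3 of A673/TR/LOX-PP, in which doxycycline turns on the propeptide released when the lysyl oxidase precursor is cut. The labels give doxycycline (1 µM, 72 h) for all 6 samples, but the study's text names it for these arrays only in the LOX-PP cells, and gives doses in µg/ml elsewhere, so neither the unit nor whether the controls received it is settled. According to the methods, zeocin-resistant clones were selected and those with the strongest induction were kept. Each line can therefore be a single clone, and a difference between clones cannot be told apart from an effect of the propeptide.

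Each sample was hybridised to a 1-colour Agilent array with 50599 gene probes on 58717 spots. Of these spots, 56.9 to 74.8% per array were well above background. Replicate 1 of A673/TR/LOX-PP lay alone on slide 2 and the other 5 arrays on slide 1. Values are log2 of the background-corrected signal over the 75th percentile of the array, and cannot be compared between probes. The 8 Ewing sarcoma markers, among them CD99, NKX2-2 and NR0B1, were well above background on all 6 arrays. Of 11 markers of epithelial, blood and endothelial cells, 10 were bright enough to be tested and the epithelial CDH1 was above background on no array. Of the other epithelial genes, CLDN4 rose with LOX-PP (log2 difference of 2.21, limma adjusted p = 0.0258). KRT19 was lower on all LOX-PP arrays without passing (-0.88, adjusted p = 0.0519), the groups overlapped for EPCAM, and the part of other cell types in the results was not tested. The 1 probe for LOX read -0.09, 0.36 and 0.11 in the controls and -0.12, -0.68 and -1.29 with LOX-PP. This difference of -0.82 did not pass the test (limma adjusted p = 0.217). Whether that probe lies inside the propeptide region was not determined, so it does not check the induction, and all directions below rest on the labels. Over the 32647 tested probes the median difference was 0.13, and changes below are given relative to it ("relative log2 change"), while each p tests the difference itself. In such bulk samples fewer cells expressing a gene and less RNA per cell cannot be told apart.

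Of the 31 tested members, 1 rose with LOX-PP and 0 fell at a Benjamini-Hochberg adjusted p under 0.05. The 1 was SLC30A4, an exporter that loads zinc into endosomes and secretory vesicles. Over all 16601 tested genes, 3.7% rose and 3.37% fell, or 7.07% in all, so 1 rise among 31 members was near the background share. At an unadjusted p under 0.05 there were 8 members (25.8%), near the 23.7% of all genes. Groups did not overlap for 4 members that were higher with LOX-PP, where the background was 15.4% of genes, and for 9 that were lower, where it was 18.2%. Relative changes were below 0 for 22 members (71.0%) and for 56.5% of all genes. The median over the tested members was -0.27, against -0.09 over all genes. SLC30A8, the zinc loader of insulin granules, SLC30A10, a manganese exporter, and the brain zinc importer SLC39A12 were too dim to be tested.

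**Figure D1:**
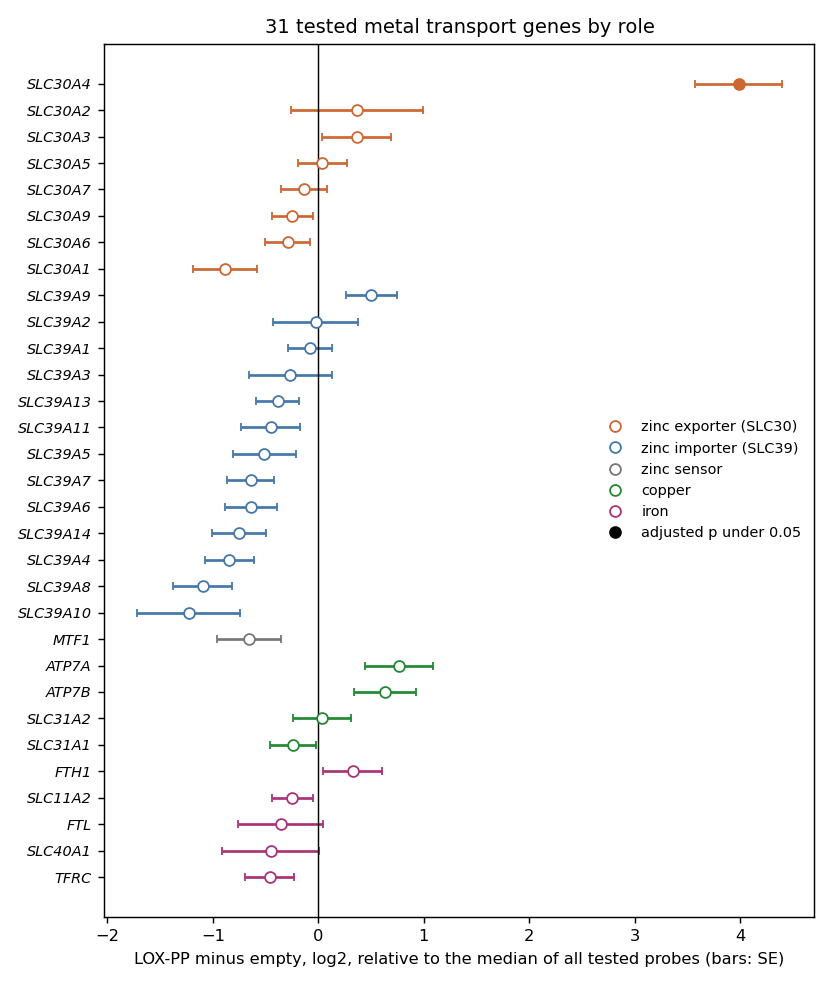
Relative log2 change (LOX-PP minus empty, minus the median of all tested probes) of the 31 tested members with its standard error, grouped and coloured by role. SLC30A4 at 3.98 is the 1 filled point, which marks an adjusted p under 0.05, and 12 of the 13 SLC39 importers lie left of 0.

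The start regions of SLC30A4 and SLC30A1 are shown with that of the metallothionein MT1X because MTF1 acts through metal response elements near gene starts. Each is 300 bases, 250 before and 50 after the RefSeq start (GRCh38.p14), and capitals mark the core of the element, written TGCACNC or TGCGCNC and searched on both strands. SLC30A4 (chr15:45522706-45523005, minus strand) held 1 core 124 bases before the start. SLC30A1 (chr1:211579112-211579411, minus strand) held 2, at 49 bases before and 25 after the start, both on the opposite strand. MT1X (chr16:56682220-56682519, plus strand) held 4, at 150, 122, 78 and 53 bases before the start.
SLC30A4: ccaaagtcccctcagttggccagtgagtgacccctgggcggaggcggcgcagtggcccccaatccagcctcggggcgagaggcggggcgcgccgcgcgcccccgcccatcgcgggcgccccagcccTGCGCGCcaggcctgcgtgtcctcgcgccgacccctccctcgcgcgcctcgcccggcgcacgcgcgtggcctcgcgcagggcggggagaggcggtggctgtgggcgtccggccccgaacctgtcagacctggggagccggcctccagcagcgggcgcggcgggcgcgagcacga
SLC30A1: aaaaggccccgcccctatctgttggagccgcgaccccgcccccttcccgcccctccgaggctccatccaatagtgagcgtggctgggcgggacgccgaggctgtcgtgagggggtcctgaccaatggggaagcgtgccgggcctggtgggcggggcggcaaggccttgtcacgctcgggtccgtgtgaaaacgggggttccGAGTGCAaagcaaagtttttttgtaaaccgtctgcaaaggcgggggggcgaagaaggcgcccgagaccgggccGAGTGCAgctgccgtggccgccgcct
MT1X: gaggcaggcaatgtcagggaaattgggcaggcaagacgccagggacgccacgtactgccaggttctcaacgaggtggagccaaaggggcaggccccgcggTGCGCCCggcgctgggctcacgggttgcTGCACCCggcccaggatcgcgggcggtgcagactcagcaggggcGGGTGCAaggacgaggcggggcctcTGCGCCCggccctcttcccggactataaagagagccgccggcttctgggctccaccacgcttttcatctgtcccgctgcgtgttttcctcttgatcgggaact
Such a core occurred at least once in 29.6% of the 35116 start regions in the RefSeq table, 2 or more times in 8.6% and 4 or more times in 0.601%. A start region was available for 29 members, and 15 of these genes (17 of 43 regions, 39.5%) held at least 1 core, up to 3 in SLC30A2 and TFRC. All 5 metallothioneins with a region held cores, up to 8. A match is a description of the letters and not a measured binding site.

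SLC30A4 read -5.55, -7.11 and -6.10 in A673/TR/empty and -2.48, -1.94 and -2.01 in A673/TR/LOX-PP. All 3 LOX-PP arrays were more than 3 log2 units above the brightest control, and the groups were far apart. Its probe was well above background on all 3 LOX-PP arrays but only on replicate 1 of the controls. It thus passed the filter through the LOX-PP arrays, and the size of its rise depends on how background is treated. The relative change was 3.98 (SE 0.41, n = 3 per group, limma adjusted p = 0.00359), with 2 of the 3 control arrays not well above background. With the signals floored at -4.81, the highest of the 6 arrays' lowest signals well above background, it was 2.54 (adjusted p = 0.00158), and after normexp background correction 2.11 (adjusted p = 0.00838). The floor set all 3 control values to -4.81, so no spread among the controls entered the p of 0.00158. SLC30A4 was measured by 1 probe.

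**Figure D2:**
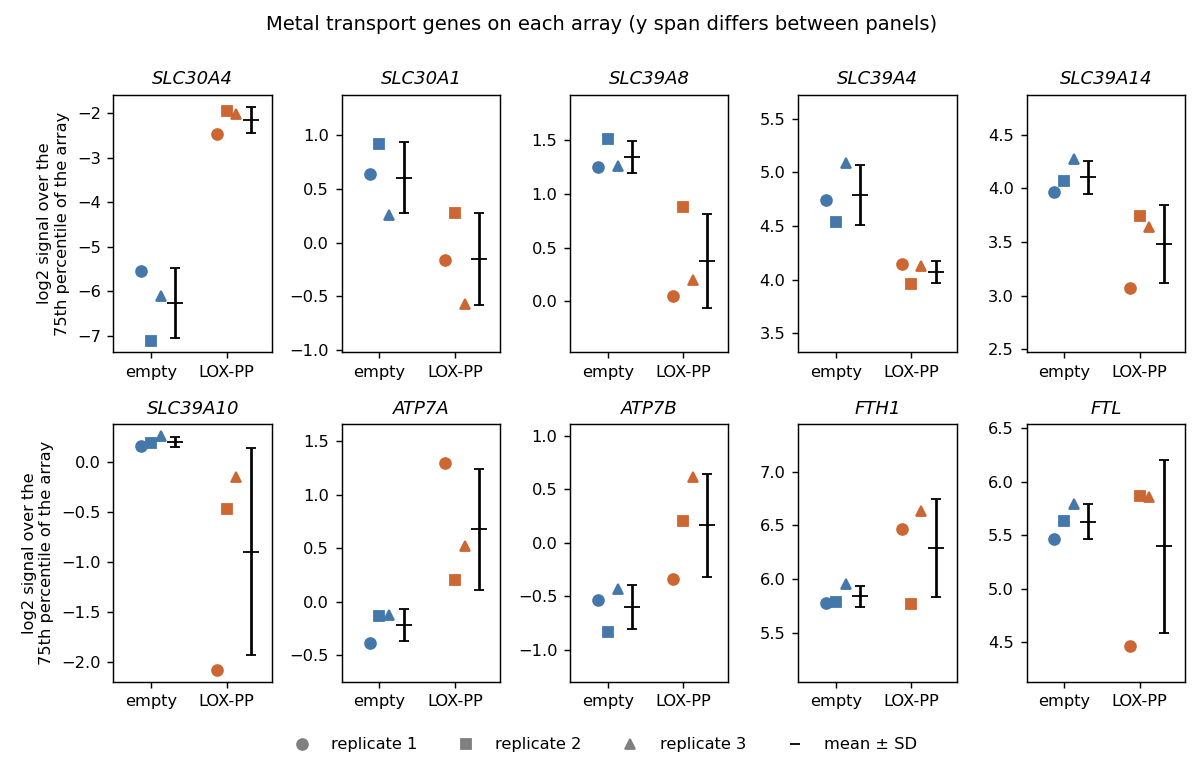
Log2 signal over the 75th percentile of the array for 10 members on each of the 6 arrays (blue, A673/TR/empty; orange, A673/TR/LOX-PP; marker shape, replicate number), with mean and SD. The y span differs between panels, and the groups are widest apart for SLC30A4, at -6.25 ± 0.79 and -2.14 ± 0.29.

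Around SLC30A4 on chromosome 15, the 5 genes on either side that RefSeq lists as protein-coding, SLC30A4-AS1 among them, were examined. Of the 7 with a tested probe, 0 rose. SQOR, 2 places away, encodes a mitochondrial enzyme that oxidises sulfide. It fell, from 2.17, 2.83 and 3.12 on the empty vector arrays to -2.01, -0.73 and -1.55 on those with LOX-PP (relative change -4.26, SE 0.40, limma adjusted p = 0.0033). BLOC1S6, which lies between them, had a relative change of -0.41 (adjusted p = 0.568) and GATM, on the other side, one of 0.92 (adjusted p = 0.0838).

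**Figure D3:**
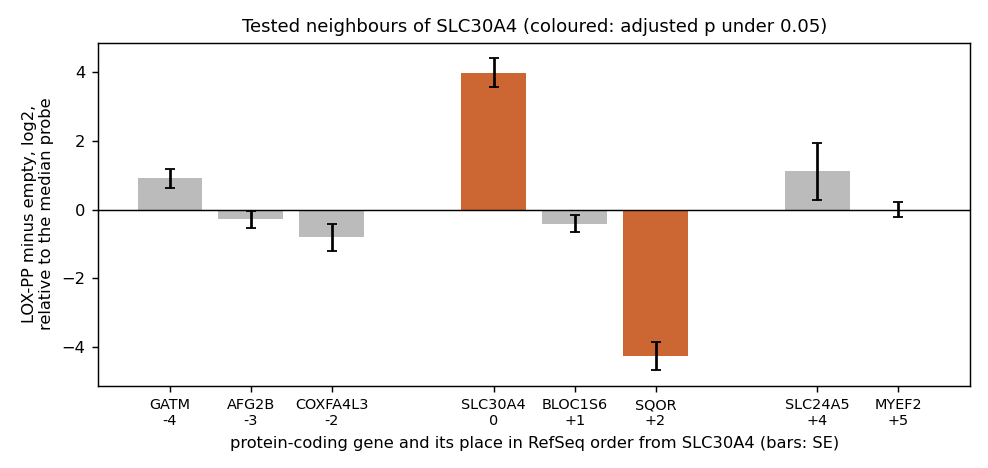
Relative log2 change with its standard error for SLC30A4 and the 7 tested protein-coding genes within 5 places of it in RefSeq order (negative places before it, positive places after). SLC30A4 at 3.98 and SQOR at -4.26 are coloured as past the threshold and go in opposite directions.

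The other 7 tested exporters did not pass the test, with relative changes from -0.89 to 0.37. The lowest was SLC30A1, which sends zinc out across the cell surface. It read 0.64, 0.92 and 0.26 in the controls and -0.17, 0.28 and -0.58 with LOX-PP. The highest LOX-PP array was above the lowest control by a small margin, and the adjusted p was 0.211. SLC30A5, SLC30A6 and SLC30A7, which bring zinc to enzymes of the secretory pathway, had relative changes of 0.04, -0.29 and -0.13. Their probes did not all tell the same: a dimmer probe of SLC30A5 had 1.16 (adjusted p = 0.123) and one of SLC30A7 had 0.57 (adjusted p = 0.174), both with LOX-PP arrays above all controls. The dimmer SLC30A5 probe was well above background on only 2 controls and 2 LOX-PP arrays, so its direction is uncertain. The mitochondrial transporter SLC30A9 was at -0.25, with groups that did not overlap, and the vesicle transporters SLC30A2 and SLC30A3 both at 0.37.

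None of the 13 tested importers passed the test, 4 of them (30.8%, against 23.7% of all genes) having an unadjusted limma p under 0.05, and 0 had an adjusted p under 0.05 in any alternative analysis. Relative changes were below 0 for 12 of the 13 (92.3%), against 56.5% of all genes, and for 11 of the 13, against 50.7%, after quantile normalization, where SLC39A1 also lay above 0. The median of the 13 was -0.51. SLC39A1 and SLC39A2 were below 0 only because the median of all tested probes, 0.13, was subtracted. Their differences themselves were 0.05 and 0.10. The LOX-PP arrays were all below the controls for 7 importers, against 18.2% of all genes, and all above them for 1, against 15.4%. Without LOX-PP replicate 1, 10 of 13 were below 0 and the median was again -0.51. Leaving out each array in turn, the median ran from -0.285 without LOX-PP replicate 2 to -0.692 without LOX-PP replicate 3. Relative changes varied with brightness over all genes. When the tested genes were ordered by mean signal and cut into 10 equal bins, the median ran from 0.27 in the dimmest bin to -0.28 in bin 8 and -0.02 in bin 10. Of the importers, 8 lay in bins 6 to 9, SLC39A4 and SLC39A13 in bin 10, SLC39A10 in bin 5, and SLC39A5 and SLC39A2 in bins 1 and 2, where the medians were 0.27 and 0.22. The part of signal level in the importers' values was not tested.

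SLC39A10, a cell surface importer, read 0.16, 0.19 and 0.26 in A673/TR/empty and -2.08, -0.47 and -0.15 in A673/TR/LOX-PP. Replicate 1 of the LOX-PP arrays, the one on its own slide, was by far the lowest. The relative change was -1.23 (SE 0.49, limma adjusted p = 0.255), and -0.68 without that array. SLC39A8, which carries zinc and manganese, had the lowest adjusted p of the importers, 0.101. It read 1.25, 1.51 and 1.26 on the empty vector arrays and 0.05, 0.88 and 0.20 on those with LOX-PP. Every LOX-PP array was below every control, with a relative change of -1.10. Its other probe was above background on 2 controls and 1 LOX-PP array, with overlapping groups, and no direction was read from it.

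SLC39A4, the importer of the gut that is mutated in the zinc deficiency acrodermatitis enteropathica, read 4.74, 4.54 and 5.09 on the control arrays. On the LOX-PP arrays it read 4.14, 3.95 and 4.12 (relative change -0.84, SE 0.23, limma adjusted p = 0.133). SLC39A14, a carrier of zinc, iron and manganese, had -0.75 (SE 0.26, adjusted p = 0.225). Both genes lie on chromosome 8, where the median of 559 tested genes was -0.42 and 73.4% were below 0. On these probes both importers were lower than that median, but SLC39A14 was at -0.46 with the mean of its probes. Whether either differed from the rest of the chromosome was not tested. SLC39A6, a relative of SLC39A10, and SLC39A7, which releases zinc from the endoplasmic reticulum and Golgi, were both at -0.64. SLC39A13, another carrier of the secretory pathway, was at -0.39. In these 4 importers, SLC39A14, SLC39A6, SLC39A7 and SLC39A13, the groups did not overlap either. A dimmer probe of SLC39A14 was at -0.34 with overlapping groups, and was above background on 2 controls and 1 LOX-PP array.

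The 1 importer above 0 was SLC39A9, a carrier of the Golgi. It read 0.22, 0.24 and 0.18 in the controls and 1.18, 0.82 and 0.52 with LOX-PP. All LOX-PP arrays were higher, with replicate 1 the highest, but the change of 0.50 did not pass (adjusted p = 0.190), and it was 0.30 without that array. The remaining importers, SLC39A1, SLC39A2, SLC39A3, SLC39A5 and SLC39A11, had relative changes from -0.51 to -0.03 and overlapping groups.

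MTF1 read 0.44, 0.98 and -0.06 in A673/TR/empty and 0.10, -0.12 and -0.21 in A673/TR/LOX-PP (relative change -0.66, SE 0.31, limma adjusted p = 0.366). The groups overlapped, and without control replicate 2, the highest array, the change was -0.33. Among the metallothioneins, 7 of 10 tested genes fell and 0 rose, against 3.37% and 3.7% of all genes. Their median relative change was -1.83. The largest falls were those of MT1M (-8.23) and MT1F (-8.17). MT1M was well above background on 3 controls and 0 LOX-PP arrays, so it passed the filter through the controls. MT1F was so on 3 controls and 1 LOX-PP array. The size of both falls therefore depends on how background is treated. MT2A, with 8 cores in its start region, and MT3 were both at 0.16 with overlapping groups (limma adjusted p = 0.598 and 0.524). MT1X, whose start region is printed above, read 4.27, 4.60 and 3.75 on the empty vector arrays and 2.61, 2.80 and 2.72 on those with LOX-PP (relative change -1.62, SE 0.27, adjusted p = 0.0265). SLC30A1 did not pass at -0.89, and SLC30A4 rose. Metallothionein genes are near copies of each other, so signal can cross between their probes.

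Of the 4 copper transporters 0 passed the test, and 2 had an unadjusted p under 0.05, as did 23.7% of all genes. Both were copper pumps, and in both the LOX-PP arrays were above all controls, as in 15.4% of all genes. ATP7A read -0.39, -0.13 and -0.13 in the controls and 1.30, 0.20 and 0.52 with LOX-PP (relative change 0.77, SE 0.32, limma adjusted p = 0.169). Replicate 1 of the LOX-PP arrays was the highest, and without it the change was 0.42. The other 3 ATP7A probes gave 0.09 to 0.24, with overlapping groups. ATP7B read -0.53, -0.83 and -0.44 in A673/TR/empty and -0.34, 0.20 and 0.62 in A673/TR/LOX-PP (relative change 0.63, SE 0.30, adjusted p = 0.202), and the change was 0.41 without LOX-PP replicate 3. It lies on chromosome 13, where the median of 285 tested genes was -0.82 and 82.1% were below 0, so it stood on the opposite side from most of its chromosome. Copper uptake genes were close to the median, with SLC31A1 at -0.24 and its relative SLC31A2 at 0.04.

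None of the 5 iron genes passed the test, and 0 had an unadjusted limma p under 0.05 on the brightest probe. FTH1, the ferritin subunit that oxidises iron, read 5.77, 5.79 and 5.95 on the empty vector arrays and 6.47, 5.77 and 6.63 on those with LOX-PP (relative change 0.33, SE 0.28, adjusted p = 0.401). LOX-PP replicates 1 and 3 were above the controls, and replicate 2 lay with them. The change was 0.66 without LOX-PP replicate 2, 0.20 without replicate 1 and 0.15 without replicate 3, and 0.014 after quantile normalization. All 4 FTH1 probes were above 0, from 0.31 to 0.72, although control replicate 1 was left out as an outlier on the probe at 0.31. On that probe and on the one at 0.72 all LOX-PP arrays were above the controls, while on the others the groups overlapped. The FTH1 probe at 0.72 had an unadjusted limma p of 0.0347 (adjusted p = 0.193). FTL, the other ferritin subunit, read 5.46, 5.63 and 5.79 in the controls and 4.47, 5.87 and 5.85 with LOX-PP (relative change -0.36, SE 0.41, adjusted p = 0.789). Here LOX-PP replicate 1 was the lowest array, and it was so on all 3 FTL probes, at 4.47, 4.61 and 4.59. The change of FTL was 0.07 without that array and -0.59 without LOX-PP replicate 3. Both ferritin genes have many processed copies in the genome, which their probes may also read.

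The transferrin receptor TFRC was at -0.46 (SE 0.23, limma adjusted p = 0.459) and the iron exporter SLC40A1 at -0.45 (SE 0.46, adjusted p = 0.733), both with overlapping groups. SLC40A1 was at -0.10 without LOX-PP replicate 1, -0.17 without control replicate 3 and -0.80 without LOX-PP replicate 3. The brighter probe of SLC11A2 was at -0.25 (adjusted p = 0.772). Its dimmer probe read 0.30, 0.28 and -0.03 in A673/TR/empty and -0.51, -0.94 and -0.50 in A673/TR/LOX-PP. All LOX-PP arrays were below the controls on this probe, with a relative change of -0.96 that did not pass (adjusted p = 0.0954). Counted by probe, 1 of the 45 tested member probes was called, against 5.66% of all tested probes.

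Beyond the transporters, 47 further genes of copper, iron and zinc handling were listed, of which 44 were tested. BMP6, the ligand that induces the iron hormone hepcidin, rose, and FECH, the enzyme that inserts iron into heme, fell. These 2 of 44 genes stood against 7.07% of all genes, and the median of the list was -0.12, against -0.09. PCBP2, a carrier of iron within the cell, was not called on its brightest probe, but the dimmest of its 3 probes was lower (relative change -1.50, adjusted p = 0.0258) while the other two were at -0.02 and -0.19. BMP6 read -1.50, -1.55 and -1.52 on the empty vector arrays and -0.60, -0.13 and -0.38 on those with LOX-PP (relative change 1.03, SE 0.22, limma adjusted p = 0.0295). FECH read 2.10, 2.09 and 2.10 in the controls and 0.81, 1.22 and 1.19 with LOX-PP (relative change -1.15, SE 0.21, adjusted p = 0.0416). In both genes the 3 control arrays lay close together and apart from all LOX-PP arrays, and both calls were lost when any array but LOX-PP replicate 1 was left out (adjusted p from 0.0716 to 0.162 for BMP6 and from 0.0782 to 0.210 for FECH).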

How the data were processed

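Total RNA of 3 A673/TR/empty and 3 A673/TR/LOX-PP samples, described as independent experiments, was hybridised to 1-colour Agilent arrays. The authors deposited the intensity of every spot from Agilent Feature Extraction (version 10.7, per the labels), corrected for background, and a table of log2 values. That deposited log2 table equals the values used here after centring each probe on its median, within 0.0054 over 50528 probes.

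From the intensities, spots of controls and outlier spots (213 to 353 per array) were dropped, log2 signals of replicate spots were averaged, and each array was scaled to its 75th percentile. No spot was saturated. The 32647 of 50599 probes that stood well above background in 3 or more arrays were tested with limma (version 3.58.1, R 4.3.3) without a block, and p-values were adjusted over all of them. This p sets the difference between the groups against the spread among arrays within each group, and the number of arrays limits its precision. Spread between separately made lines does not enter it. A gene was represented by its brightest tested probe. RefSeq (GRCh38.p14) named 28174 probes (55.7%) and was used for names, gene order and start regions, since the arrays were designed on another build. Columns left out as belonging to other samples numbered 0.

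All members were to be named, with array values for those past the threshold and those with groups apart and a log2 change of at least 1. Array values of further members were chosen after they were seen. Members and lists were chosen with earlier results of these data known. Steps were tested on simulated arrays. Alternatives were quantile normalization, centring on the median of bright probes, the authors' log2 table, normexp (offset 50, on the median signal), no filter, a filter on all 6 arrays, slide and replicate blocks, the t-test of the methods, averaging every probe per gene, leaving out each array and, added after seeing the data, a common floor.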

Additional observations from a re-analysis of the deposited data

How the results depend on the processing

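The rise of SLC30A4 kept its direction under all 16 alternatives that tested it and passed under 15, with relative changes from 2.11 to 4.35. Of these 15, the common floor made the control values equal, so its p holds no spread among them. The alternatives reuse the same arrays and are not independent of each other. The authors' log2 table and centring on the median of bright probes gave 3.98 again. The rise missed the threshold with the t-test of the methods (adjusted p = 0.0537). It was not tested when all 6 arrays had to be well above background. Under those settings the members past the threshold numbered 0, with 6 and 9 at an unadjusted p under 0.05. Without each array in turn the count of members was 1 to 1. The other metal genes past the threshold numbered 0 without a filter, with the replicate block and with the t-test of the methods (6, 7 and 9 at an unadjusted p under 0.05), and 0 to 2 without each array. Same-numbered arrays of both groups had deviations from the group means correlated at 0.267, -0.39 and 0.227. Control replicate 2 and LOX-PP replicate 1, with different numbers, reached 0.391. With so few arrays per group, these values cannot settle whether the numbers pair the arrays. With the replicate block 1 member, SLC30A4, passed (relative change 3.98, adjusted p = 0.0222), and 860 probes passed in place of 1849. The count of probes was 516 without a filter, 566 with the t-test of the methods and 407 to 2062 without each array. The slide block leaves the same 5 arrays as omitting LOX-PP replicate 1. The share of calls that were higher moved from 1080 of 1849 probes to 908 of 1891 after quantile normalization. The importers below 0, 12 of 13 as reported, numbered 10 to 12 under the other settings that tested 13. They numbered 10 of 12 with the filter on all 6 arrays and 13 of 14 without a filter. The share of all genes below 0 moved too, from 50% with the mean of all probes to 60.5% without a filter. Members that changed sign never passed the test. SLC39A2 was at 0.077 after normexp, 0.032 with the filter on all 6 arrays, 0.31 with the slide block and 0.055 with the mean of all probes, and SLC31A2 and SLC30A5 were at -0.027 and -0.058 after normexp and at -0.14 and -0.14 without a filter. Quantile normalization gave SLC39A1 0.20, SLC30A7 0.082 and SLC31A1 0.020. The mean of all probes gave SLC39A1 0.000172 and SLC30A7 0.30, and the slide block gave FTL 0.072 and SLC39A3 0.12. Leaving out each array in turn, the range was -0.18 to 0.31 for SLC39A2, -0.074 to 0.24 for SLC31A2, -0.048 to 0.17 for SLC30A5, -0.59 to 0.072 for FTL, -0.14 to 0.79 for SLC30A2, -0.59 to 0.12 for SLC39A3 and -0.30 to 0.066 for SLC30A7. FTL and SLC39A3 turned positive without LOX-PP replicate 1 alone. The cause was not tested.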
